A study of Mus musculus with 6 samples.

Results

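The cytosolic ribosomal protein genes encode the protein part of the ribosome. Array probes belonged to them when their design name was Rpl or Rps with a number and an optional suffix, or Rplp0, Rplp1, Rplp2 or Rpsa, and Rps6k kinase names were left out. The rule used names and no measured difference, and found 81 of the 19506 genes on the array, 49 of the large subunit and 32 of the small subunit. They were measured by 135 probes. For the 40 genes with several probes, the one with the highest mean over the arrays stood for the gene. Of the 81, 5 are like-genes, close relatives of a classical ribosomal protein gene (Rpl3l, Rpl7l1, Rpl22l1, Rpl36al and Rps27l).

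The study took RNA from laser-captured cells of the autopod, the hand and foot plate, of C57BL/6 mouse embryos at stage E14.5. The mutant groups were interzone, growth plate cartilage and interdigital tissue of Tgfbr2Prx1KO embryos, by convention a loss of the TGF-beta type II receptor in limb mesenchyme through a recombinase driven by the Prx1 promoter. The control groups were the same 3 tissues of wild-type embryos. The interzone is the cell band where a joint forms, and each tissue and genotype had 1 array, so the 6 arrays held 3 mutant and control pairs with no replicate. At most 2 mutant and 2 control littermates stood behind them, tissue was pooled in a way the labels do not detail, and all RNA was amplified by PCR before labelling. The labelled descriptions of 5 samples named irradiated human blood, against their titles, organism and tissue labels, and the titles were followed. The title of the interdigital mutant spells the genotype Tbr2Prx1KO, while its genotype label is Tgfbr2Prx1KO.

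A level below is the log2 processed signal minus that array's 75th percentile, and a difference is on the log2 scale, so that 1 is 2-fold. Median processed signal was 340 to 502 units on the mutant arrays and 103 to 466 units on the control arrays, with the growth plate control array lowest. That array also had the smallest share of spots well above background, 72.3%, against 77.3% to 88.3% on the others. Tgfbr2 had levels of 2.24, 1.20 and 1.92 on the mutant interzone, growth plate and interdigital arrays, against 2.42, -2.40 and 2.50 on the control arrays, so it was lower in the mutant by under 2-fold in interzone and interdigital tissue and higher in growth plate. The labels do not name the deleted part, so this probe may lie outside it and then checks nothing. All 7 growth plate cartilage markers were lower in the growth plate mutant than in the growth plate control, by a median of 3.82 log2 units. All 7 were also lower in the interzone mutant than in the interzone control. Their summed levels were 6.1, 6.0 and 5.9 on the mutant interzone, growth plate and interdigital arrays, against 7.1, 9.1 and 6.4 on the control arrays. A summed level is the log2 of the sum of the unlogged levels, so the brightest genes weigh most in it. Epidermal markers had summed levels of 6.07, 6.54 and 6.16 on the mutant interzone, growth plate and interdigital arrays, against 2.22, 4.77 and 0.87 on the control arrays, with 6 of 6 markers above background on each mutant array and 4 to 6 on the control arrays. Skeletal muscle markers had summed levels of 5.33, 3.93 and 4.03 on the mutant arrays, against 4.09, 5.49 and 4.59 on the control arrays, with 6 of 6 above background everywhere. The part these cells have in the ribosomal protein values was not tested.

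Each ribosome holds about one copy of every ribosomal protein, and cells make these proteins in matched amounts. Their messenger RNAs are among the most abundant of any growing cell, and in vertebrates they start with a run of pyrimidines, the terminal oligopyrimidine motif, through which the kinase mTOR controls their translation. Because the family is large, abundant and made in step, its members are often used as reference genes, and their spread is used here to gauge how far signals move between arrays of amplified RNA. The genome also holds many processed copies of these genes, and how far a probe binds transcripts of such copies was not tested.

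Promoters were looked up because most of the genes had similar profiles over the arrays. Of the 81 genes, 60 matched the RefSeq promoter table of GRCm38.p6 by symbol, with 71 entries of 250 bases before to 50 bases after an annotated start. The letters CGGAAG or, on the other strand, CTTCCG, the core of sites for ETS family factors, occurred in an entry of 40 of these 60 genes (66.7%) and of 5075 of all 27025 genes of the table (18.8%). A run of at least 8 C or T bases touching the 10 bases on either side of the start occurred in 28 of the 60 (46.7%) and in 4259 of all 27025 (15.8%). The CTTCCG letters begin with pyrimidines, so both can overlap. A match describes the letters only. The promoters shown are those of the genes with the 3 narrowest and the 3 widest ranges over the arrays among genes with 1 entry, so that steady and unsteady genes can be set side by side. They run from 150 bases before the start through the first 20 bases from it, and capitals mark the hexamer on either strand and the pyrimidine runs at the start. The narrow-range genes are Rps23, Rps7 and Rpl28.
Rps23, chr13:90922972-90923141, plus strand: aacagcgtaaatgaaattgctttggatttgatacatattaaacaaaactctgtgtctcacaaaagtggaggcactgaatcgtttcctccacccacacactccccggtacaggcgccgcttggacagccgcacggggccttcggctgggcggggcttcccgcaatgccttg
Rps7, chr12:28635934-28636103, minus strand: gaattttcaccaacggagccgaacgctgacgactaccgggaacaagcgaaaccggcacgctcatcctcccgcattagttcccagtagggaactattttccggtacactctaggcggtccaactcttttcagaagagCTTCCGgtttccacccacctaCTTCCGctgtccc
Rpl28, chr7:4792815-4792984, plus strand: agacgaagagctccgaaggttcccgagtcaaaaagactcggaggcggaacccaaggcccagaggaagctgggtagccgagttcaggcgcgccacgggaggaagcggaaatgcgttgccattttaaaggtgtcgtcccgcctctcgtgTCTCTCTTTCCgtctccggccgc
The wide-range genes are Rpl27, Rpl14 and Rplp2.
Rpl27, chr11:101442095-101442264, plus strand: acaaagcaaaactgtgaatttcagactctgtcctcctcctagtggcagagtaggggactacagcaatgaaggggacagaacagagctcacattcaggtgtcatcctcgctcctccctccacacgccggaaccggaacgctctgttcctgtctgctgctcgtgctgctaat
Rpl14, chr9:120571367-120571536, plus strand: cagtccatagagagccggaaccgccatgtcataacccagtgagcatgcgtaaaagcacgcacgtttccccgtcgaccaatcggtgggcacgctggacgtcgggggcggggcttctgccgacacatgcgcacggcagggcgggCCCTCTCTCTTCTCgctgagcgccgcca
Rplp2, chr7:141447501-141447670, plus strand: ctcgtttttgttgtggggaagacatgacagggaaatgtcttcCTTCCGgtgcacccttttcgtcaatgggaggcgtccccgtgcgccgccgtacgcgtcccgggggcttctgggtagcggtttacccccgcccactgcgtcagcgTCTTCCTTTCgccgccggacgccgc
The hexamer stood in the shown stretch of Rps7 (2 times) and Rplp2 (1 time). A pyrimidine run of 11 bases stood at the start of Rpl28, against 14 bases at Rpl14 and 10 at Rplp2. Neither feature separated the narrow from the wide ranges in these 6 genes.

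The ribosomal protein genes had bright probes on every array. Between 68 and 70 of the 81 lay among the brightest 10% of genes, and 35 to 43 were among the 100 brightest. Brightness depends on the probe as well as the RNA, so no order of expression between genes is read from it. Together the 81 held 7.42%, 7.31% and 8.02% of the summed signal of all genes on the mutant interzone, growth plate and interdigital arrays, against 6.37%, 7.99% and 6.66% on the control arrays. Their median level was 4.92 on each of the 3 mutant arrays, against 4.64, 5.61 and 4.62 on the interzone, growth plate and interdigital control arrays. The growth plate control stood highest, and the other 5 arrays lay between 4.62 and 4.92. In such bulk samples, fewer cells and less RNA per cell cannot be told apart.

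**Figure D1:**
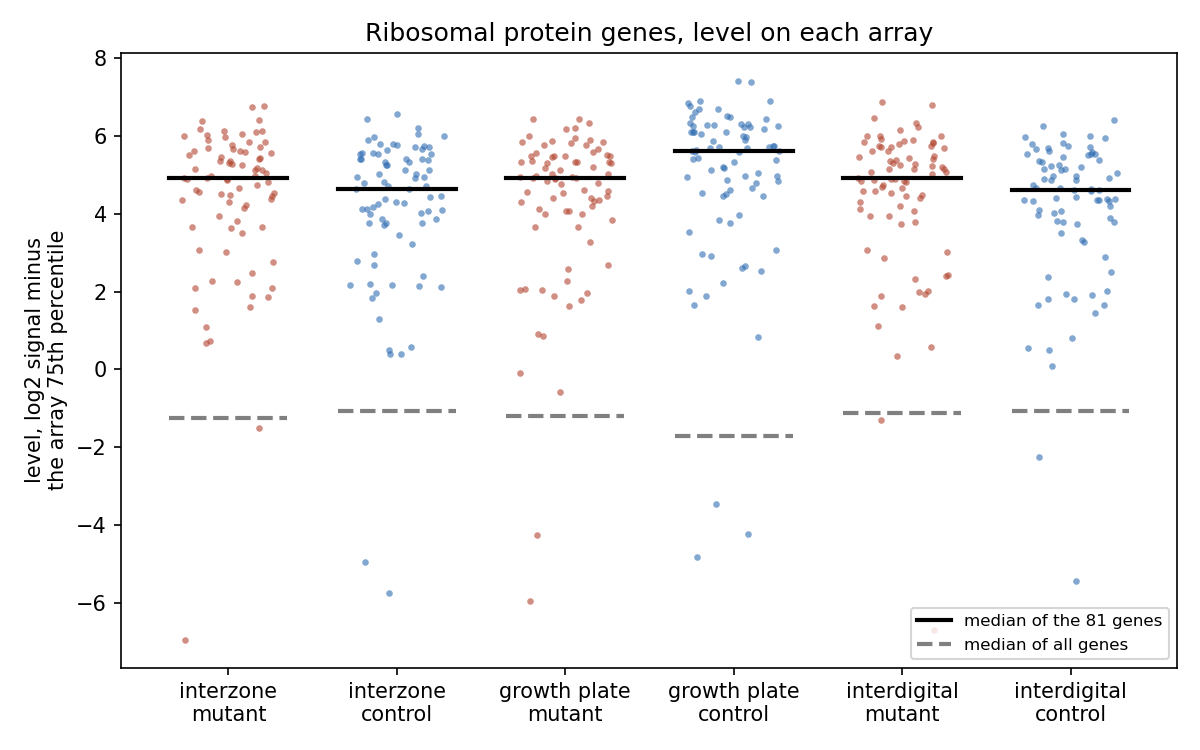
Level (log2 signal minus the array's 75th percentile) of each of the 81 ribosomal protein genes on each array, mutant left of control in each tissue. Black lines are medians of the 81 genes, 4.92 on the mutant arrays and 4.64, 5.61 and 4.62 on the interzone, growth plate and interdigital control arrays, and dashed lines are medians of all genes.

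In the interzone, the ribosomal protein genes were slightly higher in the mutant, though not after normexp background correction, where the median was 0.0034 and 40 of 80 were positive. The median difference, mutant minus control, was 0.21 over the 80 genes well above background on both arrays, against -0.11 over all 16670 genes so measured, and 63 of the 80 were positive. At least 2-fold higher were 3 of 80 (17.8% of all genes were), and at least 2-fold lower was 1 (22.7% of all genes). Both interzone arrays lay on 1 slide.

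Rpl14, a large-subunit protein, made the widest interzone difference, at levels of -1.50 in the mutant and -4.94 in the control, 3.44 log2 units apart. Rpl27a, also of the large subunit, had 1.89 in the interzone mutant and 0.41 in the interzone control, and Rpl31, beside the tunnel exit, had 1.60 and 0.39. Of the genes below, Rpl7l1, a relative of Rpl7, had 1.09 in the interzone mutant and 2.16 in the interzone control, 2.11-fold lower in the mutant, but its dimmer probe differed by 1.09 the other way. These 4 genes had mean levels from -3.08 to 1.63, under the members' median. The next in each direction stayed under 2-fold, with Rpl36al at 0.97 above, and Rpl36a at -0.46, Rpl9 at -0.24, Rpl5 at -0.22 and Rpl36 at -0.22 below. Rpl3l, the muscle-enriched relative of Rpl3, was not well above background in the interzone mutant and had a level of -5.75 in the interzone control, at least 1.68-fold lower in the mutant.

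In the growth plate the genes were lower in the mutant, though not after quantile normalization. The median difference, mutant minus control, was -0.69 over 81 genes, against -0.45 over all 16167 genes measured, and 77 of the 81 were negative. At least 2-fold lower in the mutant were 12 genes (32.6% of all genes were), and at least 2-fold higher was 1 (22.1% of all genes). The quartiles of the 81 differences lay at -0.91 and -0.53, so most of the family moved by nearly the same amount. The growth plate mutant lay on the other slide from its control, and here slide and genotype cannot be told apart.

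Rpl22l1, a relative of Rpl22, was farthest below, with levels of -0.08 in the growth plate mutant and 1.65 in the growth plate control, 3.31-fold lower, while its second probe differed by -0.28. Rplp2, a protein of the stalk that draws translation factors to the ribosome, had 2.07 in the growth plate mutant and 3.53 in the control, 2.76-fold lower. Rps19, the gene most often mutated in human Diamond-Blackfan anaemia, had 2.68 and 3.98 on the same arrays, and an almost equally bright second probe differed by -0.34. Rps12 at -1.29 and Rpl36al at -1.23 followed. The exception was Rpl27, with -0.57 in the growth plate mutant and -3.45 in the growth plate control, 7.36-fold higher. Its control value stood apart, since its other 5 levels lay between -0.57 and 1.11. Rpl4 at 0.36, Rps7 at 0.16 and Rpl31 at 0.01 were the other positive differences, and Rpl14 at -0.01 was the smallest negative one.

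In interdigital tissue the genes were higher in the mutant again, also after normexp (median 0.34) and quantile normalization (0.21). The median difference, mutant minus control, was 0.34 over 81 genes, against -0.18 over all 17793 genes, and 74 of the 81 were positive. At least 2-fold higher were 2 (10.1% of all genes) and at least 2-fold lower were 2 (16.0% of all genes). Slide and genotype cannot be told apart in this pair either. Rpl31 had 2.01 in the interdigital mutant and 0.49 in the interdigital control, 2.86-fold higher, but its second probe differed by -0.06. Rpl27 had 1.11 and 0.09, 2.04-fold higher. Rpl14 at 0.97, Rps3 at 0.91 and Rpl36al at 0.85 came next. Below were Rpl7l1, with 0.35 in the interdigital mutant and 1.65 in the interdigital control (its dimmer probe differed by 0.71), and Rpl3l, with -6.70 and -5.43. Rpl36 at -0.42, Rpl9 at -0.09 and Rpl32 at -0.09 followed.

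Over the 3 pairs, 57 of the 80 genes above background on all 6 arrays (71.2%) were higher in the interzone and interdigital mutants and lower in the growth plate mutant, a pattern that 10.7% of all 15591 such genes had. At least 2-fold apart in any of the 3 pairs were 15 of 80 (18.8%), against 73.6% of all such genes. A shift of the whole family moves these counts together, so they are a description of the 6 arrays and not of separate genes.

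**Figure D2:**
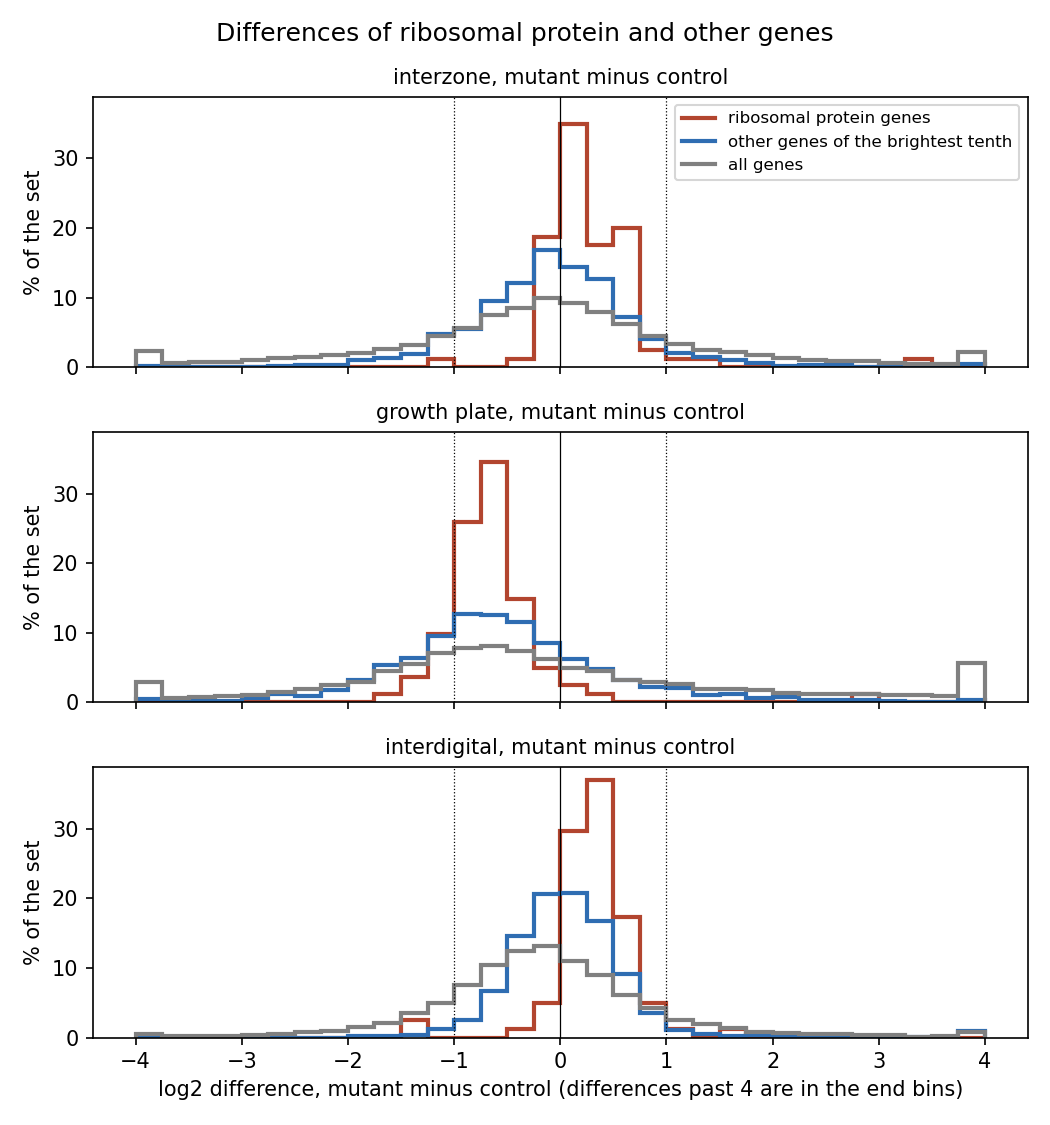
Share of each gene set (%) by log2 difference, mutant minus control, in bins of 0.25, for the interzone, growth plate and interdigital pairs. Ribosomal protein genes stand in a narrow peak with medians of 0.21, -0.69 and 0.34, inside the broader curves of other bright genes and of all genes, and dotted lines mark 2-fold.

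The spread of the differences was small beside other genes. Its SD over the ribosomal protein genes was 0.51 in the interzone pair, 0.52 in the growth plate pair and 0.38 in the interdigital pair, against 1.66, 2.10 and 1.12 over all genes. Other genes among the brightest 10% had SDs of 0.897, 1.103 and 0.723. They were dimmer than the ribosomal protein genes, with median levels of 2.84, 2.74 and 2.73 on the mutant interzone, growth plate and interdigital arrays, so they were not matched in brightness. The 32 small-subunit genes had SDs of 0.29, 0.30 and 0.22, and the large-subunit genes 0.62, 0.63 and 0.45, where Rpl14 and Rpl27 lie. Both subunits had like medians, 0.20, -0.66 and 0.28 for the large subunit and 0.22, -0.74 and 0.41 for the small one. Genes of other large complexes spread more widely, but they were dimmer and not matched in brightness either. Over the arrays, median levels ran from 0.58 to 1.15 for mitochondrial ribosomal proteins and from 1.66 to 2.39 for proteasome subunits. Those of the ribosomal protein genes ran from 4.62 to 5.61. The SDs were 1.49, 2.13 and 0.71 for mitochondrial ribosomal proteins, and 1.37, 2.43 and 0.44 for proteasome subunits. Translation factors, the enzymes and initiation proteins that work with the ribosome, had SDs of 0.65, 0.81 and 0.34. Their median levels, 3.05 to 3.63, were also lower than those of the ribosomal protein genes.

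Spots of 1 probe repeated on an array had a median SD of 0.07 to 0.10 log2 units. A Rplp0 probe with 10 spots had SDs of 0.04 to 0.11. Different probes of 1 ribosomal protein gene disagreed more, with a median SD between probes of 0.26, 0.31 and 0.35 in the interzone, growth plate and interdigital differences. Probes of 17, 5 and 17 genes of the 37, 34 and 40 with several measured probes differed in sign within these pairs.

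**Figure D3:**
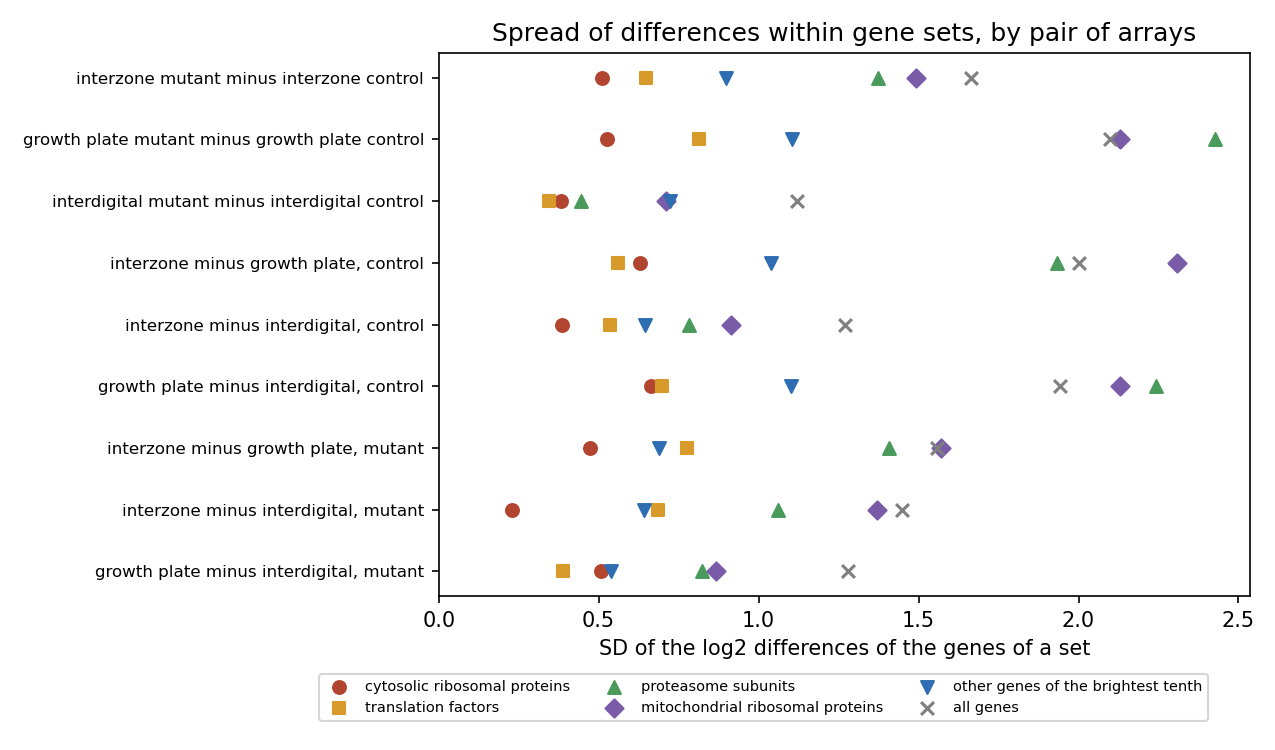
SD of the log2 differences of the genes of a set (horizontal) for each of the 9 pairs of arrays (rows). Ribosomal protein genes lie between 0.23 and 0.66, left of all genes in every row, and translation factors lie left of them in 3 rows.

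Tissue pairs within a genotype reuse the same 6 arrays. In controls the genes were lower in interzone than in growth plate (median difference -0.84, SD 0.63, 80 of 81 negative). They were higher in growth plate than in interdigital tissue (0.88, SD 0.66, 79 of 81 positive), and interzone and interdigital tissue were close (0.06, SD 0.39). In mutants all 3 tissue pairs were close, with 0.09 for interzone minus growth plate, -0.04 for interzone minus interdigital and -0.12 for growth plate minus interdigital. The mutant interzone and interdigital arrays, which lay on different slides, had the narrowest spread of the 9 pairs, SD 0.23. The growth plate control was the highest array for 72 of the 80 genes above background everywhere, and every pair with a median past 0.5 in size included it.

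The sign of the growth plate median turned after quantile normalization and was kept after normexp, in the deposited table and with the percentile over detected probes. With each array's quantiles made equal, the growth plate median, mutant minus control, was 0.04 and 49 of 81 genes were positive, and the interzone and interdigital medians were 0.12 and 0.21. In the deposited table, where each array is divided by its own median, the growth plate median was -1.80 and 78 of 81 genes were at least 2-fold lower, beside 64.6% of all genes. Over probes detected on all arrays, the 75th percentile gave -0.31 with 2 genes at least 2-fold lower, beside 22.35% of all genes. Normexp gave -0.67. After quantile normalization the growth plate control had the highest ribosomal protein median of the controls, 5.03, against 4.82 in interzone and 4.85 in interdigital tissue. The mutant medians were then 4.93, 5.02 and 4.99 in interzone, growth plate and interdigital tissue, so the growth plate control no longer stood apart.

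The same family can in turn serve to scale the arrays. With each array centred on the ribosomal protein median, a setting chosen after seeing the data, the share of higher genes among all genes at least 2-fold apart in the growth plate pair was 65.8%, against 40.4% in the scaling used above. It was 32.4% against 43.9% in the interzone pair, and 21.4% against 38.6% in the interdigital pair. In the deposited table these shares were 54.3% in interzone, 16.8% in growth plate and 51.2% in interdigital tissue. After normexp background correction they were 72.3%, 39.5% and 43.4%, and after quantile normalization 50.1%, 33.2% and 49.2%. With the percentile over detected probes they were 42.8%, 54.4% and 37.1%. Over these settings the share ran from 32.4% to 72.3% in interzone, from 16.8% to 65.8% in growth plate and from 21.4% to 51.2% in interdigital tissue.

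**Figure D4:**
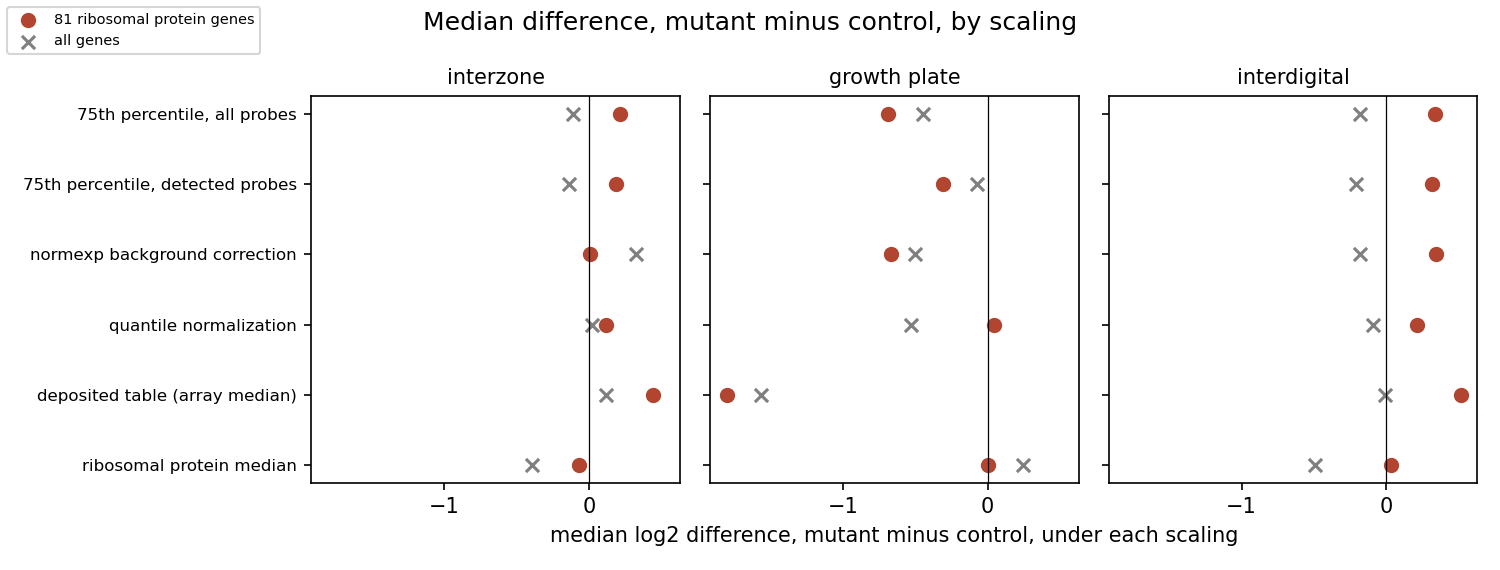
Median log2 difference, mutant minus control, of the 81 ribosomal protein genes (dots) and of all genes (crosses) in each tissue under 6 scalings (rows). In growth plate the ribosomal protein median lies at -0.69 in the scaling used here, -1.80 in the deposited table and 0.04 after quantile normalization.

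Among genes commonly used as references, ranges over the 6 arrays were 0.90 for Rplp0, 0.70 for Rpl13a and 1.01 for Rpl32, beside the members' median range of 1.01 log2 units. Rplp0, the base of the stalk, had 4.30, 4.21 and 4.55 on the mutant interzone, growth plate and interdigital arrays, against 3.77, 4.67 and 4.21 on the control arrays. Rpl13a, which in human cells also leaves the ribosome to silence inflammatory transcripts, had 4.50, 4.47 and 4.60 in mutants, against 4.09, 4.78 and 4.39 in controls. Both were highest in the growth plate control. Rpl32, a common reference in quantitative PCR, had 5.77, 5.68 and 5.72 in mutants, against 5.91, 6.69 and 5.81 in controls, so that all 3 mutant levels lay under the control levels.

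Rps6, the small-subunit protein phosphorylated by the S6 kinases, had 5.59, 5.51 and 5.69 in mutants, against 5.64, 6.11 and 5.46 in controls, a range of 0.65. Rpsa, the small-subunit protein also known as a laminin receptor, had 4.16, 4.56 and 4.50 in mutants, against 4.10, 4.95 and 4.36 in controls. Mutant and control levels overlapped for both genes. Rpl3, which reaches towards the site where peptide bonds form, had 4.54, 4.85 and 4.82 in mutants, against 4.71, 5.59 and 4.62 in controls. Rpl5, which with Rpl11 and an RNA of the large subunit binds the p53 inhibitor Mdm2 when assembly fails, had 4.91, 4.91 and 5.01 in mutants, against 5.13, 5.97 and 4.58 in controls. Rpl11 had 2.10, 2.27 and 2.33 in mutants, against 2.20, 2.91 and 1.80 in controls. Like the family's median, both were highest in the growth plate control and lowest in the interdigital control. In the interzone pair they differed by -0.22 (Rpl5) and -0.09 (Rpl11), against a family median of 0.21.

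The stalk proteins Rplp1 and Rplp2 had wider ranges, 1.32 and 2.25. Rplp1 had 2.47, 2.03 and 2.00 in mutants, against 1.97, 2.98 and 1.66 in controls. Rplp2 had 1.53, 2.07 and 1.63 in mutants, against 1.29, 3.53 and 1.45 in controls, where the growth plate control stood 1.46 above the next array. Rpl38, which in mice is needed for the translation of Hox transcripts and for skeletal patterning, had 4.67, 4.41 and 4.67 in mutants, against 4.13, 4.98 and 4.07 in controls, and lay with the family.

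The 5 narrowest ranges belonged to Rpl21 (0.38), Rps23 (0.55), Rps7 (0.59), Rpl28 (0.64) and Rps6 (0.65). Rpl21, of the large subunit, had 2.27, 1.89 and 1.93 in mutants, against 2.18, 2.21 and 1.90 in controls, and the interzone mutant, not the growth plate control, was its highest array. Rps23, of the decoding centre, had 5.84, 5.78 and 5.90 in mutants, against 5.77, 6.26 and 5.71 in controls. Rps7 had 1.85, 2.05 and 2.41 in mutants, against 1.84, 1.89 and 1.82 in controls, where the interdigital mutant stood highest. The 5 widest belonged to Rpl27 (4.57), Rpl14 (3.65), Rplp2 (2.25), Rpl7l1 (2.18) and Rpl36al (1.82). Rpl27 was 23.7-fold and Rpl14 12.6-fold apart between their highest and lowest array. The 15 genes with mean levels under 3 had a median range of 1.60, against 0.99 for the other 65. Across the 80 genes, mean level and range had a Pearson r of -0.66 and a Spearman rho of -0.39, given as a description, since all points share the 6 arrays and brighter probes lie farther from background.

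**Figure D5:**
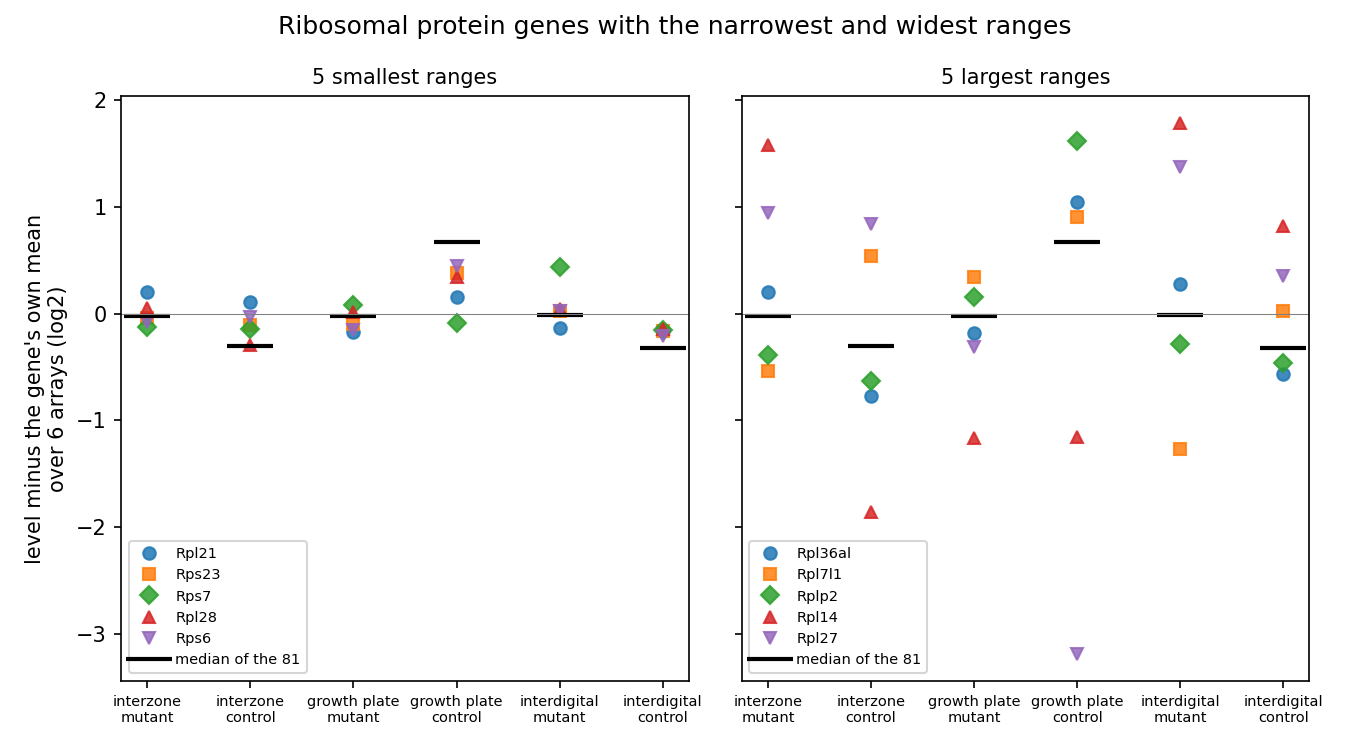
Level minus the gene's own mean over 6 arrays (log2) for the 5 genes with the smallest ranges (left) and the 5 with the largest (right), mutant left of control in each tissue, with the median of the 81 as a bar. The narrow genes stay within 0.65 log2 units, while Rpl27 is lowest in the growth plate control.

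Like-genes did not always go with their partner. Rpl7l1 had 1.09, 1.97 and 0.35 in mutants, against 2.16, 2.53 and 1.65 in controls, lower in all 3 mutants at this probe, while Rpl7 differed by 0.07, -0.57 and 0.16. Rpl3l was lower in all 3 mutants too, by 1.13 in growth plate and 1.27 in interdigital tissue, at levels from -6.95 to -4.82, while Rpl3 differed by -0.17, -0.74 and 0.20. Rpl22l1 differed by 0.24, -1.73 and 0.03, and Rpl22 by 0.14, -0.65 and 0.04. Rpl36al differed by 0.97, -1.23 and 0.85, and Rpl36a by -0.46, -0.68 and 0.20. The other probes of Rpl36a differed by 0.07, -1.24 and 0.65, and by 0.88, -1.03 and 0.99, nearer to Rpl36al. Rps27l, which p53 induces, differed by -0.01, -1.03 and 0.43, and Rps27 by 0.07, -0.80 and 0.45, the closest of these pairs. Whether a like-gene and its partner differ in response was not tested, since each tissue has 1 array per genotype.

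The only fit with residual degrees of freedom combines all 6 arrays, with tissue and genotype as additive terms in limma. Of the 81 genes 0 passed an adjusted p of 0.05 for mutant minus control (0.0% of the 18003 genes tested), and 0 passed in each of the 3 tissue contrasts (0.0% in each). At an unadjusted p under 0.05 there were 1 for mutant minus control, 1 for interzone minus growth plate, 0 for interzone minus interdigital and 1 for growth plate minus interdigital, beside 1189, 1165, 548 and 1005 of all genes. The same fit on the deposited table called 13 of all genes for mutant minus control and 0 of the 81. Rpl3l was the one for genotype, at -1.20 ± 0.44 (SE), lower in 3 of 3 mutants, with limma's adjusted p = 0.683. Its interzone mutant value, -6.95, was not well above background and was taken by the fit as measured. Rpl27 was the one in both contrasts with growth plate, at 2.64 ± 0.87 for interzone minus growth plate with limma's adjusted p = 0.761. Arrays of a genotype share embryos, which makes p-values for mutant minus control too small. How the sharing bears on the tissue contrasts was not tested. The fit also takes the same genotype difference in every tissue, so differences that vary by tissue enter its residual and widen the SEs. The median fitted difference of the 81 genes for mutant minus control was -0.06, from pairs with medians of 0.21, -0.69 and 0.34. Left out one at a time, each growth plate array gave 0.29, each interzone array -0.18 and each interdigital array -0.25. With slide as a block the median was 0.21. Only the interzone mutant shares a slide with its control, so that value rests on the interzone pair alone. On all pairs the median was 0.12 after quantile normalization and 0.05 with the percentile over detected probes.

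Genes outside the family with the most similar profile were found by the root mean square distance of their 6 centred levels from the members' median profile. Naca, which binds nascent chains at the ribosome, was closest at 0.06 log2 units. Then came Prmt7 (0.08), Cyfip1 (0.08), Dpysl2 (0.08), Atp5k (0.09), Fzr1 (0.09), Olfr744 (0.09), Uqcrb (0.09), B230369F24Rik (0.09) and Lsm8 (0.10). Within 0.25 lay 66 of 80 ribosomal protein genes (82.5%) and 481 of 15508 other genes (3.1%). The members set the profile themselves, so their share describes how tightly they hold to it. Rpl24 at 0.06, Rpl6 at 0.07 and Rpl23a at 0.08 lay nearest, and Rpl27 at 1.81 and Rpl14 at 1.54 farthest.

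Genes that build the ribosome spread more widely than those encoding it, but they were dimmer and not matched in brightness. Their median levels ran from 0.54 to 1.59 over the arrays, against 4.62 to 5.61 for the ribosomal protein genes. For ribosome biogenesis and rRNA synthesis, the median differences, mutant minus control, were 0.46, -0.05 and 0.39 over 34, 32 and 34 measured genes in interzone, growth plate and interdigital tissue, with SDs of 1.43, 1.97 and 0.95. In the growth plate pair 9 of 32 were at least 2-fold higher and 8 at least 2-fold lower (22.1% and 32.6% of all genes). Among them Taf1b, of the polymerase I initiation factor, differed by 6.52 and Lsg1, a late large-subunit assembly factor, by -2.43. Translation factors had medians of -0.01, -0.31 and 0.22. In the growth plate pair 3 of 37 exceeded 2-fold upward and 2 downward (22.1% and 32.6% of all genes). The downward genes were Eif3g and Rack1, and the upward ones are not named here. Eif3g, an initiation factor subunit, had 1.95 in the growth plate mutant and 4.19 in the growth plate control. Rack1, a protein of the small subunit with a name of its own, had 4.55 in the growth plate mutant and 5.62 in the growth plate control. Of the p53 pathway genes linked to ribosomal stress, in the growth plate pair 4 of 13 exceeded 2-fold upward and 4 downward. Of all genes 22.1% and 32.6% did, so these counts do not mark the list. Pmaip1, which promotes cell death, had 0.48 in the interzone mutant and -5.74 in the interzone control, and -0.77 in the growth plate mutant and -6.30 in the growth plate control. In interdigital tissue it had -1.88 in the mutant and -2.32 in the control. Its interzone and growth plate control levels were dim, under the lower quartiles of all genes on those arrays, -3.61 and -4.80. Trp53inp1, a p53 target, differed by -2.10 in growth plate. Cdkn1a, which halts the cell cycle, differed by 3.22 in interzone, -1.70 in growth plate and -0.22 in interdigital tissue. Regulators of ribosomal protein synthesis had medians of -0.20, -0.44 and -0.11. In the growth plate pair 3 of 18 exceeded 2-fold upward and 5 downward (22.1% and 32.6% of all genes). There Sp1 differed by 3.36, Gabpa, an ETS family factor, by 3.08, Max, the partner of Myc, by -5.71 and Tsc2, an inhibitor of mTOR signalling, by -2.17. Gabpb1, which pairs with Gabpa and was picked after its values were seen, differed by -1.90.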

How the data were processed

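Gene expression was measured on 6 one-colour Agilent arrays, 1 for each of 3 tissues in mutant and wild-type embryos. Groups came from sample titles. Per the file headers, Agilent Feature Extraction 9.5.1.1 gave the deposited processed intensity of each spot, background-subtracted. The deposited table held the processed signal divided by the array's median, a linear ratio, found by setting it against the scanner values. Here, control spots and outlier spots were left out, spots of a probe averaged as log2, and each array's 75th percentile subtracted. Names followed the array's GeneName for members and, for the rest, a RefSeq table of GRCm38.p6, which left 8455 probes unnamed and unused. A gene took its brightest probe by mean over arrays. Differences needed both arrays well above background by the scanner's mark, and 2-fold was counted. A gene above background on 1 array got a bound. No spot was saturated, and the number of arrays limits the precision.

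The additive limma 3.58.1 fit (R 4.3.3) used genes well above background on at least 3 arrays, with Benjamini-Hochberg adjustment over all of them. Its code was checked on simulated data with effects far above most member differences. That check does not show whether differences of the members' size would be called. Promoter letters were searched in Python 3.11.15. Alternatives were normexp with an offset of 50, quantile normalization, the percentile over detected probes, the deposited table, the mean over a gene's probes, no filter, 4-fold, no like-genes, slide as a block, each array left out, and the ribosomal protein median as scale.

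Members and lists were chosen with earlier results of these data known. Named genes were the 5 largest differences each way per pair, the 5 narrowest and 5 widest ranges, fixed landmarks, like-genes with partners, and, from the other lists, up to 4 genes a list among those with the largest differences each way on the growth plate pair. Of the genes that this rule names, 1 is not reported here. Any member could be named, and Rpl38 was added for its role in the skeleton. Nothing says that arrays came from separate animals, so p-values set differences against the residual spread of these arrays and not that between animals.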

Additional observations from a re-analysis of the deposited data

Results flagged for a closer look

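The growth plate pair went against the other pairs. The members' median difference, mutant minus control, was -0.69 there (-0.688 to 3 decimals), against positive medians of 0.21 in interzone and 0.34 in interdigital tissue. The difference between the pairs was not tested, with 1 array per group, and quantile normalization gave 0.04 in growth plate. The growth plate control array had the lowest median signal, 103 units, and the smallest share of spots well above background, 72.3%. Rpl27a was past 2-fold both ways, at 1.485 in the interzone pair and -1.0906 in the growth plate pair. That difference was not tested either. A dimmer probe of Rpl27a had 1.21 in interzone and 2.27 in growth plate, so the probes disagreed in the growth plate pair.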

How the results depend on the processing

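No paired analysis was possible because the labels give no replicate numbers to block by; the tissue term of the additive fit already sets mutant against control within each tissue. In the additive limma fit 0 of 81 genes were called in each of 4 contrasts under the alternatives that kept all arrays, slide as a block included. Of all genes tested 0 were called there too, except 13 of 18003 for mutant minus control in the deposited table. The fit had 2 residual degrees of freedom, or 1 with slide as a block, and called almost no gene. The members' 0 therefore does not set them apart from other genes and does not show that they were steady. With slide as a block, mutant minus control in that fit rests on the interzone pair alone. The members' median minus that of all genes kept its direction or moved by less than the spread between probes except in these cases. After normexp it was -0.3184 in the interzone pair, against 0.33 in the scaling used above. After quantile normalization it was 0.2351 for interzone minus growth plate and -0.385 for growth plate minus interdigital in controls, against -0.72 and 0.73, and 0.5739 for the growth plate pair, against -0.24. In mutants it was -0.6604 for interzone minus growth plate and -0.7336 for interzone minus interdigital after normexp, and -0.3643 for the second after quantile normalization. Averaging the probes of a gene widened the SD of the differences to 1.0592 (interzone), 1.0556 (growth plate), 1.0328, 0.9179 and 1.414 (control interzone minus growth plate, interzone minus interdigital, growth plate minus interdigital), and 0.8887, 0.4468 and 0.8009 (the same in mutants). Averaging brings in the dimmer probes, whose median level was 2.69 against 4.91.

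Counts of members past 2-fold that moved by over 1.5 times were these. Percentages in brackets are the share of all genes past the same threshold in that setting. In the interzone pair, 3 higher became 5 in the deposited table (21.97%), 6 with averaged probes (19.6%) and 1 at 4-fold (7.92%). The 1 lower became 0 in the deposited table (18.5%), 2 with averaged probes (21.9%) and 2 with no filter (25.05%). It became 0 at 4-fold (10.25%) and 0 without like-genes (22.7%). In the growth plate pair, 1 higher became 2 after quantile normalization (19.2%) and 2 on the ribosomal protein scale (31.7%). The 12 lower became 3 after quantile normalization (38.7%), 2 with the percentile over detected probes (22.35%) and 78 in the deposited table (64.6%). They became 19 with averaged probes (31.3%), 0 at 4-fold (12.4%) and 1 on the ribosomal protein scale (16.5%). In the interdigital pair, 2 higher became 5 in the deposited table (12.9%), 0 at 4-fold (3.34%) and 1 on the ribosomal protein scale (6.97%). The 2 lower became 1 after normexp (11.1%), 1 after quantile normalization (14.0%) and 1 with averaged probes (16.7%). They became 0 at 4-fold (3.86%) and 0 without like-genes (16.0%). Smaller moves in growth plate were to 15 lower after normexp (29.7%) and 8 lower without like-genes (32.6%). In interzone 2 were higher on the ribosomal protein scale (14.05%). In interdigital tissue 3 were higher after quantile normalization (13.5%) and with averaged probes (10.6%). The cause of these changes was not tested. Signal over background limits dim members: Rpl3l was well above it on 5 of 6 arrays, and 15 of 80 members had mean levels under 3.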

Other observations

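A few probes are ribosomal protein genes by the RefSeq table but carried another name on the array, and were not among the 81. The probe named Arbp, which is Rplp0, had 5.09, 4.73 and 4.83 on the mutant interzone, growth plate and interdigital arrays, against 4.40, 5.62 and 4.70 on the control arrays. The member probe of Rplp0 and this one both were highest in the growth plate control. Rpl34 had 5.99, 5.85 and 5.88 in mutants, against 5.86, 6.70 and 5.69 in controls, and its differences of 0.13, -0.85 and 0.20 lay between the members' quartiles in each pair. Rps4l differed by -0.94, -0.08 and 0.07. Rpl39l, a testis-enriched relative of Rpl39, was well above background in the growth plate mutant at -1.30, and in the interzone and interdigital controls at -5.97 and -5.66, but not on the other 3 arrays.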
